A study of Mus musculus with 5 samples.

Results

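The enzymes and readers of DNA methylation described here were *Tet1*, *Tet2*, *Tet3*, *Dnmt1*, *Dnmt3a*, *Dnmt3b*, *Uhrf1*, *Tdg* and *Mbd2*. They were taken by gene identity alone, through their Ensembl identifiers on the mouse GRCm38 genome, and make up 9 of the 55487 genes counted. All 9 passed the filter on low counts that left 13525 genes for testing. RNA-seq by SMART-seq had been run on CD4 single positive (SP) thymocytes, the thymic precursors of helper T cells, from 3 wild type (WT) mice and 2 *Tet2/3* double knockout (DKO) mice, with 1 library per mouse. The comparison asked how the levels of these genes differed in cells made to lack TET2 and TET3. All 5 mice were of the strain C57BL/6J, and the study's methods place the animals at a juvenile age around weaning. The DKO mice had the genotype Tet2-/-Tet3flx/flxCD4cre: *Tet2* was disrupted in the whole animal, while *Tet3* was removed by a Cre recombinase under control of *Cd4* regulatory sequences, which act in thymocytes from the double positive stage on. The WT mice carried none of these alleles, so Cre itself was present in 1 group alone. Live cells with low CD24 (HSA), CD4 and TCRb on their surface were sorted after gating out CD8 and cells that bind the CD1d tetramer of invariant natural killer T (iNKT) cells.

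DNA methylation in mammals sits mainly on cytosines that are followed by guanine (CpG). DNMT3A and DNMT3B place new methyl groups, and DNMT1, guided by UHRF1 to freshly copied DNA, restores them after each round of replication. The TET dioxygenases oxidize 5-methylcytosine to 5-hydroxymethylcytosine and further forms, the glycosylase TDG cuts out the most oxidized forms for repair, and MBD2 binds methylated DNA and brings in the NuRD co-repressor complex. In thymocytes TET2 and TET3 are the TET proteins best known for their part in T cell development.

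CpG sites, on which these enzymes act, also lie in the promoters of their own genes. The stretches below are shown for the 3 TET genes, for *Dnmt3b* as the methyltransferase with the lowest DKO level relative to WT, and for *Uhrf1* as the gene whose level is set beside the cell cycle genes further on. Each runs 5′ to 3′ on the strand of its gene and ends just before a RefSeq transcription start (RefSeq sequences, build GRCm38.p6), at chr10:62887325-62887412 (minus strand, *Tet1*), chr3:133544391-133544640 (minus, *Tet2*), chr6:83441679-83441928 (minus, *Tet3*), chr2:153649199-153649448 (plus, *Dnmt3b*) and chr17:56304063-56304312 (plus, *Uhrf1*). Capitals mark CpG in the first 4 and the letters of an E2F site in *Uhrf1*. The *Tet1* stretch is 88 bases long because an annotated exon of another *Tet1* transcript begins beyond it, and the other 4 are 250 bases long.
Tet1: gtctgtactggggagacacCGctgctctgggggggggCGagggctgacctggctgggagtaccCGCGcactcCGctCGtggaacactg
Tet2: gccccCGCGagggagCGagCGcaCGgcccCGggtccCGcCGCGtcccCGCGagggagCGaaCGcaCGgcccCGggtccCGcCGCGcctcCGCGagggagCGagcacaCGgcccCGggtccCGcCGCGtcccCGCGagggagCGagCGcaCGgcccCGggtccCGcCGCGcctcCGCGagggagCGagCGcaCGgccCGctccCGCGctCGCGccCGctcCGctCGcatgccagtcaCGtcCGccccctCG
Tet3: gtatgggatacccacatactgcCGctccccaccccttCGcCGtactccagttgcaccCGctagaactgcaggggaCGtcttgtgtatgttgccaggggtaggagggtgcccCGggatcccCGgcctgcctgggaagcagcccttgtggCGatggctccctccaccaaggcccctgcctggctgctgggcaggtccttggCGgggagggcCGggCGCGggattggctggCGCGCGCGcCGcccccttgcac
Dnmt3b: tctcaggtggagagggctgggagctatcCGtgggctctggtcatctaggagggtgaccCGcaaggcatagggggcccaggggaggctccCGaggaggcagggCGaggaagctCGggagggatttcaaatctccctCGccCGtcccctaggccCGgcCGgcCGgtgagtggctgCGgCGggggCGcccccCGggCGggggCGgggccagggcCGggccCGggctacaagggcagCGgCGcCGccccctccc
Uhrf1: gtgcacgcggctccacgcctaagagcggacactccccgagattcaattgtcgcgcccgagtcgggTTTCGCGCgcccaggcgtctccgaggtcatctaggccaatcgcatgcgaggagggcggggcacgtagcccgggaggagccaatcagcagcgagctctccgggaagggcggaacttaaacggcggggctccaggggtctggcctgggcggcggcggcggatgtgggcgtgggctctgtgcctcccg

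Over the full RefSeq window of 300 bases, which adds 50 bases after the start, *Tet2* held 57 CpG, *Dnmt3b* 30, *Tet3* 22 and *Tet1* 17. The median over all 32851 windows in the table was 7, and 99.8% of windows held fewer than that of *Tet2*. The table had 13 windows for 8 of the 9 genes, and *Mbd2* had no entry. The 13 windows ranged from 2 CpG, at the outermost of 3 *Dnmt1* starts, to the 57 of *Tet2*. Part of the *Tet3* stretch is also covered by an annotated exon of a noncoding antisense gene, B230319C09Rik. Short motifs were looked for on both strands: the GC box GGGCGG, the E2F letters TTTGGCGC and TTTCGCGC, the ETS letters CCGGAAGT, the RUNX core TGTGGT and the CCAAT box. GGGCGG was found in 10 of the 13 windows, the windows of all 3 TET genes among them, against 35.7% of all windows. TTTCGCGC was found in 2, at a *Dnmt1* and a *Uhrf1* start, against 0.323% of all windows, and TTTGGCGC in 1, at the same *Dnmt1* start, against 0.514%. The ETS letters, present in 3.89% of all windows, were in none of the 13, while the RUNX core was in 1, against 16.8% of all windows, and CCAAT in 6, against 37.4%. Most of the 13 windows held more CpG than the median window, and neighbouring *Dnmt3a* windows overlap, so these shares do not compare like or separate windows. The matches describe letters in a window and no binding was measured.

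Between 17607089 and 27267031 reads per library were assigned to genes. The 2 libraries labelled by genotype as DKO and the 3 labelled WT were not alike in all other respects. The labels give library WT 1 as female and the others as male, but *Xist*, the RNA of the inactive X chromosome, had 744 reads in DKO 1 and at most 2 in any other library, and the reads of *Uty*, *Ddx3y*, *Eif2s3y* and *Kdm5d*, 4 genes of the Y chromosome, summed to 7 reads in DKO 1 and to between 5101 and 7041 in the other 4. The sex label therefore went against the counts in WT 1 and in DKO 1, and the results are also given without each library. The study's methods instead describe the mice of both groups as male, which the counts go against in DKO 1 alone. By its counts DKO 1 was female and the other libraries were male. DKO 1 further had 5.70% of its reads outside any annotated gene, compared with 3.51% to 3.72% in the other 4. Levels are given as CPM, the reads of a gene per unit of library size after TMM scaling. The defining T cell markers were present in every library: the 9 listed (*Cd3e*, *Cd3d*, *Cd3g*, *Lat*, *Trac*, *Trbc2*, *Cd4*, *Cd5* and *Lck*) summed to 14220 to 15137 CPM in WT and 12542 to 14377 in DKO, although 2 of them, *Cd5* and *Cd4*, were called lower in DKO. Of the 5 NK and iNKT cell markers, 4 passed the test as higher in DKO, with a summed level of 34.3 to 44.6 CPM in WT and 323 to 581 in DKO, although tetramer-binding cells had been gated out. The most abundant was *Nkg7*, a cytotoxic granule gene, at 26.7 to 37.5 CPM in WT and at 295 and 522 in DKO, and *Ncr1*, the defining NK cell receptor, was at or near 0 in WT and at 1.48 and 2.24 in DKO. The 6 myeloid and dendritic markers summed to 7.25 to 13.5 CPM in WT and to 21.9 and 48.5 in DKO. Of these, 0 of 4 tested genes were called at 0.01 by edgeR or DESeq2. In edgeR 3 were at an unadjusted p under 0.05, as were 3112 of all 13525 tested genes. The part of either list in the results below was not tested.

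Among the 9 genes, *Tet3* alone passed the main threshold, a Benjamini-Hochberg adjusted p under 0.01 over all tested genes in edgeR's quasi-likelihood test, and it was lower in DKO. *Tet1* and *Dnmt3b* were next, with mean DKO levels at 55.5% and 58.7% of the WT mean, and passed at 0.05. *Tet2* was the only gene with a higher estimate in DKO, and it did not pass. *Dnmt1*, *Dnmt3a*, *Uhrf1*, *Tdg* and *Mbd2* had lower estimates that did not pass either.

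**Figure D1:**
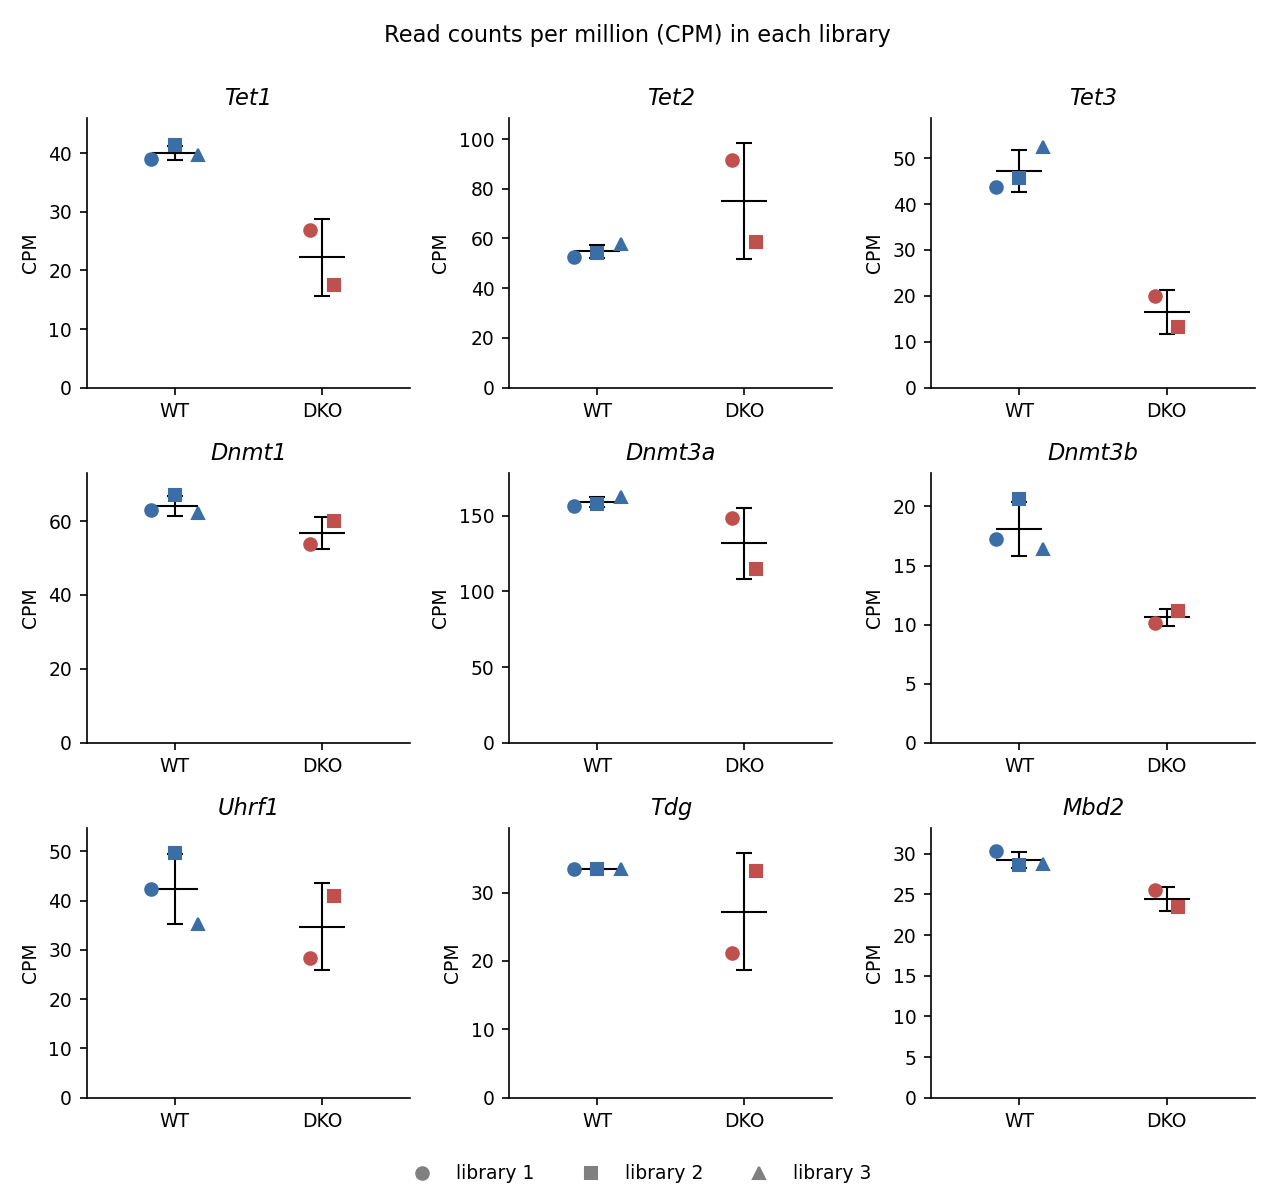
CPM (TMM-scaled; vertical axes start at 0 and differ by panel) of the 9 genes in each library, with WT libraries in blue and DKO libraries in red. Horizontal lines are group means and bars are the SD (n = 3 WT, n = 2 DKO). The DKO libraries lie below all WT libraries for *Tet3*, *Tet1* and *Dnmt3b*, whereas for *Tdg* only DKO 1 stands well below the others.

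As the gene removed by Cre, *Tet3* was examined first. *Tet3* (ENSMUSG00000034832, chr6:83362373-83459084, minus strand) had 1133, 1082 and 1440 reads in WT 1, 2 and 3, and 419 and 235 in DKO 1 and 2. Scaled for depth these were 43.8, 45.6 and 52.5 CPM in WT and 20.0 and 13.1 CPM in DKO. Both DKO libraries lay below every WT library, at 42.2% and 27.8% of the WT mean, and DKO 1 was the higher of the pair. The log2 fold change was −1.50 ± 0.18 (SE; edgeR, adjusted p = 0.00121), a 2.83-fold lower level in DKO. *Tet3* RNA thus remained countable in both knockout libraries. The deposited counts are totals over whole genes, so the loss of the exons between the Cre target sites cannot be read from them, and in bulk RNA fewer cells with *Tet3* RNA and less *Tet3* RNA per cell cannot be told apart. Without 1 library at a time, the log2 fold change ranged from −1.85 to −1.26. The adjusted p in edgeR was 0.00853 without WT 1, 0.0154 without WT 2 and 0.0144 without WT 3. In the 3 libraries whose sex label matched the counts (WT 2, WT 3 and DKO 2), the log2 fold change was −1.91. With 1 DKO library, that fit holds no spread between DKO mice.

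*Tet2* (ENSMUSG00000040943, chr3:133463679-133545139, minus strand) was disrupted in the germline, yet its level was no lower in DKO. It had 1355, 1286 and 1585 reads in WT and 1919 and 1048 in DKO. In CPM these were 52.4, 54.2 and 57.8 in WT, 91.5 in DKO 1 and 58.6 in DKO 2. DKO 1 stood apart at 167% of the WT mean, and DKO 2, at 107%, was just above the highest WT library. The log2 fold change was 0.46 ± 0.17 (SE; edgeR, adjusted p = 0.135; 95% interval before adjustment, 0.08 to 0.83). It was 0.10 without DKO 1 and 0.72 without DKO 2, fits that each hold 1 DKO library and so no spread between DKO mice. The gene total does not show which *Tet2* exons the reads came from, so these counts are no check of the null allele.

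*Tet1* (ENSMUSG00000047146, chr10:62804570-62908996, minus strand), the family member that was not targeted, was lower in DKO as well. Its levels were 39.0, 41.4 and 39.8 CPM in WT, from 982 to 1091 reads, and 26.9 and 17.6 CPM in DKO, from 564 and 314 reads. The 3 WT libraries differed from each other by at most 1.06-fold, and both DKO libraries were below them, at 67.2% and 43.9% of the WT mean. Its log2 fold change was −0.84 ± 0.17 (SE; edgeR, adjusted p = 0.0152), which missed 0.01. For the same counts the adjusted p from DESeq2 was 0.000150. The log2 fold change was −1.19 without DKO 1 and −0.59 without DKO 2, with 1 DKO library left in each fit. *Tet1* also missed 0.01 when any 1 WT library was left out, where the adjusted p in edgeR rose to as much as 0.0806.

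DKO 1 exceeded DKO 2 by nearly the same factor for each TET gene, 1.53 for *Tet1*, 1.56 for *Tet2* and 1.52 for *Tet3*. Their proportions were therefore close in both DKO libraries although their levels were not. Such a gap was not particular to this family. Listed genes outside it, such as *Kmt2a* and *Ahcyl2*, were also well higher in DKO 1, while others, such as *Tdg*, went the other way. To compare levels between genes, CPM was divided by the length of the merged exons in kilobases. On this scale the summed TET level was 8.25, 8.62 and 9.14 CPM per kilobase in WT 1, 2 and 3. It was 8.36 in DKO 1, inside the WT range, and 5.40 in DKO 2, below it. *Tet2* made up 37.5% ± 0.2 (SD, n = 3) of that sum in WT and 64.9% and 64.4% in DKO 1 and 2. The share of *Tet3* was 31.7% to 34.4% in WT and 14.3% and 14.6% in DKO, and that of *Tet1* was 28.1% to 31.1% in WT and 20.8% and 21.05% in DKO. The groups did not overlap for any of the 3 shares. These are parts of 1 sum, so they do not move separately, and *Tet3* was a target of the knockout by design. The *Tet2* share counts RNA of a disrupted gene. The two-sided exact permutation test used here doubles the smaller tail, so with 3 against 2 libraries it cannot give a p under 0.2. It gave 0.2 for each of the 3 shares and 0.4 for the sum. With the length of the longest protein-coding transcript in place of merged exons, the *Tet2* share was 45.4% to 45.9% in WT and 72.5% to 72.9% in DKO.

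**Figure D2:**
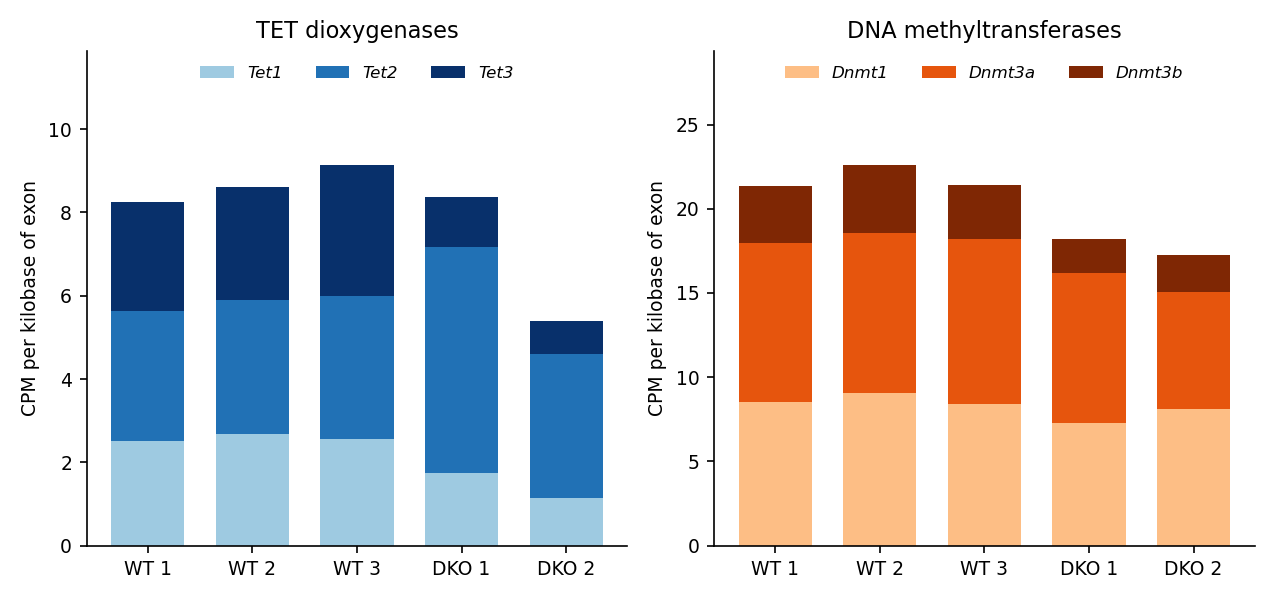
CPM per kilobase of merged exon in each of the 5 libraries, stacked by gene for the TET dioxygenases (left) and the DNA methyltransferases (right; the vertical scales differ). *Tet2* is the largest part of the TET bar in both DKO libraries at 64.9% and 64.4%, and the DNMT bars of DKO 1 and 2, at 18.2 and 17.2, are below the lowest WT bar at 21.3.

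Of the DNA methyltransferases, *Dnmt3b* (ENSMUSG00000027478, chr2:153649450-153687730, plus strand) had the lowest DKO level relative to WT. It was also the least expressed of the 9 genes in reads, with 445, 490 and 450 in WT and 212 and 199 in DKO. Its levels were 17.2, 20.6 and 16.4 CPM in WT and 10.1 and 11.1 CPM in DKO. The DKO libraries were close to each other and both below WT, at 55.9% and 61.6% of the WT mean. In edgeR the log2 fold change was −0.77 ± 0.17 (SE; edgeR, adjusted p = 0.0249). DESeq2 gave an adjusted p of 0.00179. The edgeR estimate ranged from −0.85 to −0.67 when each library was left out. Its adjusted p in edgeR was 0.0904 without WT 1, 0.0994 without WT 2 and 0.0601 without WT 3. The call at 0.05 thus needed all 3 WT libraries.

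*Dnmt3a* (ENSMUSG00000020661, chr12:3806007-3914443, plus strand), the other de novo methyltransferase, was the most abundant of the 9 in CPM. Its levels were 156, 158 and 163 CPM in WT, 148 in DKO 1 and 115 in DKO 2. Both DKO values were below the WT range, DKO 1 narrowly. Between genotypes the log2 fold change was −0.27 ± 0.11 (SE; edgeR, adjusted p = 0.197). It was −0.47 without DKO 1 and −0.11 without DKO 2, with 1 DKO library left in each fit. An antisense transcript shares 0.799% of the *Dnmt3a* exon bases, and the reads carry no strand.

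*Dnmt1* (ENSMUSG00000004099, chr9:20907209-20959888, minus strand), which maintains methylation through cell division, differed least among the 9. It was at 63.1, 67.0 and 62.1 CPM in WT and at 53.8 and 60.0 CPM in DKO. DKO 2 was just below the lowest WT library and DKO 1 further below. DKO differed from WT by a log2 fold change of −0.17 ± 0.10 (SE; edgeR, adjusted p = 0.369; 95% interval before adjustment, −0.41 to 0.06), so a drop of up to 0.41 on the log2 scale lay within the error. Per kilobase of merged exon, the summed DNMT level was 21.3, 22.6 and 21.4 in WT and 18.2 and 17.2 in DKO, without overlap (two-sided exact permutation test, p = 0.2, the smallest possible). *Dnmt3b* supplied 15.0% to 17.9% of that sum in WT and 10.9% and 12.7% in DKO.

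*Uhrf1* (ENSMUSG00000001228, chr17:56303321-56323486, plus strand), the partner that brings DNMT1 to replicated DNA, was the only one of the 9 whose groups overlapped. Its levels were 42.3, 49.6 and 35.2 CPM in WT and 28.4 and 40.9 CPM in DKO. The WT libraries alone spanned 1.41-fold. DKO 2 lay inside that span, and DKO 1 lay below it at 67.0% of the WT mean. For *Uhrf1* the log2 fold change was −0.29 ± 0.19 (SE; edgeR, adjusted p = 0.405), and it was −0.05 without DKO 1 and −0.59 without DKO 2.

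*Tdg* (ENSMUSG00000034674, chr10:82629828-82650799, plus strand), the glycosylase that removes oxidized methylcytosine, was near constant apart from 1 library. It was at 33.5 CPM in each WT library, at 21.1 in DKO 1 and at 33.2 in DKO 2. DKO 1 was thus at 63.1% of the WT mean and DKO 2 at 99.2%. Over all 5 libraries the log2 fold change was −0.31 ± 0.18 (SE; edgeR, adjusted p = 0.343). It was −0.68 without DKO 2 and −0.01 without DKO 1, with 1 DKO library left in each fit. Of the *Tdg* exon bases, 6.83% are shared with *Glt8d2* on the opposite strand, and reads there cannot be assigned to either gene.

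The low *Uhrf1* and *Tdg* values in DKO 1 stood beside low values of the cell cycle genes in that library. Of 16 cell cycle genes (among them *Mki67*, *Top2a*, *Rrm2*, *Cdk1* and *Mcm2* to *Mcm7*), 15 were below the lowest WT library in DKO 1 and none above the highest. In DKO 2, 10 were above the highest WT library and 2 below the lowest. The matching shares of all tested genes in each library are not given here. The summed level of the 16 genes was 2636, 2729 and 2401 CPM in WT 1, 2 and 3, 1968 in DKO 1 and 2984 in DKO 2. Among the 3 WT libraries, the sum and *Uhrf1* were both highest in WT 2 and both lowest in WT 3, whereas *Tdg* was at 33.5 CPM in each. *Dnmt1* was also lower in DKO 1 than in DKO 2, at 83.9% and 93.6% of the WT mean. None of the 16 cell cycle genes passed the test between genotypes in edgeR, and 1 was called by DESeq2. In edgeR 1 was at an unadjusted p under 0.05, compared with 3112 of all 13525 tested genes. The largest estimates were those of *Top2a*, at −0.66 ± 0.18, *Ccnb1*, at 0.35 ± 0.32, and *Rrm2*, at −0.28 ± 0.19 (SE). The part of the cell cycle genes in the levels of *Uhrf1* and *Tdg* was not tested.

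**Figure D3:**
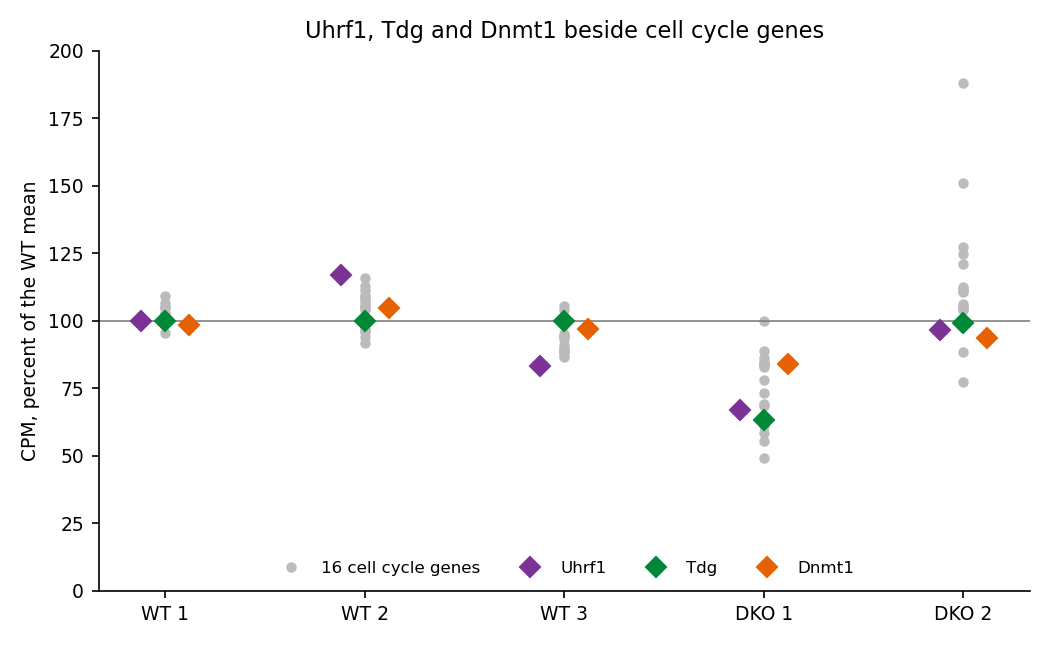
CPM of *Uhrf1*, *Tdg*, *Dnmt1* (diamonds) and 16 cell cycle genes (grey points) in each library as a percent of the gene's WT mean, which is the line at 100. In DKO 1 *Uhrf1* and *Tdg* are at 67.0% and 63.1% and 15 of the grey points are below the lowest WT library of their gene, while in DKO 2 they are at 96.5% and 99.2%.

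*Mbd2* (ENSMUSG00000024513), the reader of methylated CpG, was even within groups. It was at 30.4, 28.6 and 28.8 CPM in WT and at 25.5 and 23.4 CPM in DKO. Both DKO libraries were below WT, by a small margin. Its log2 fold change was −0.25 ± 0.12 (SE; edgeR, adjusted p = 0.251; 95% interval before adjustment, −0.53 to 0.02), and it ranged from −0.32 to −0.21 when each library was left out.

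Counted together, 1 of the 9 genes was called at the adjusted p threshold of 0.01 in edgeR, where 3.92% of all tested genes were called. That gene was *Tet3*, the target of Cre, and it was called lower, as were 1.5% of all tested genes. None of the genes that were not targeted was called at 0.01 in edgeR. *Tet2* and *Tet3* were altered by the genotype itself, so the counts given here include genes changed by design. At 0.05, 3 of the 9 were called (*Tet3*, *Tet1* and *Dnmt3b*), against 8.67% of all tested genes. DESeq2 at 0.01 called the same 3, against 6.91% of the genes to which it gave an adjusted p. The CPM of the groups did not overlap for 8 of the 9 genes, against 39.1% of all tested genes, and 7 of these 8 were lower in DKO, against 19.5% of all tested genes. The estimate was lower in DKO for 8 of the 9, and the median log2 fold change was −0.29, compared with 0.01 over all tested genes.

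**Figure D4:**
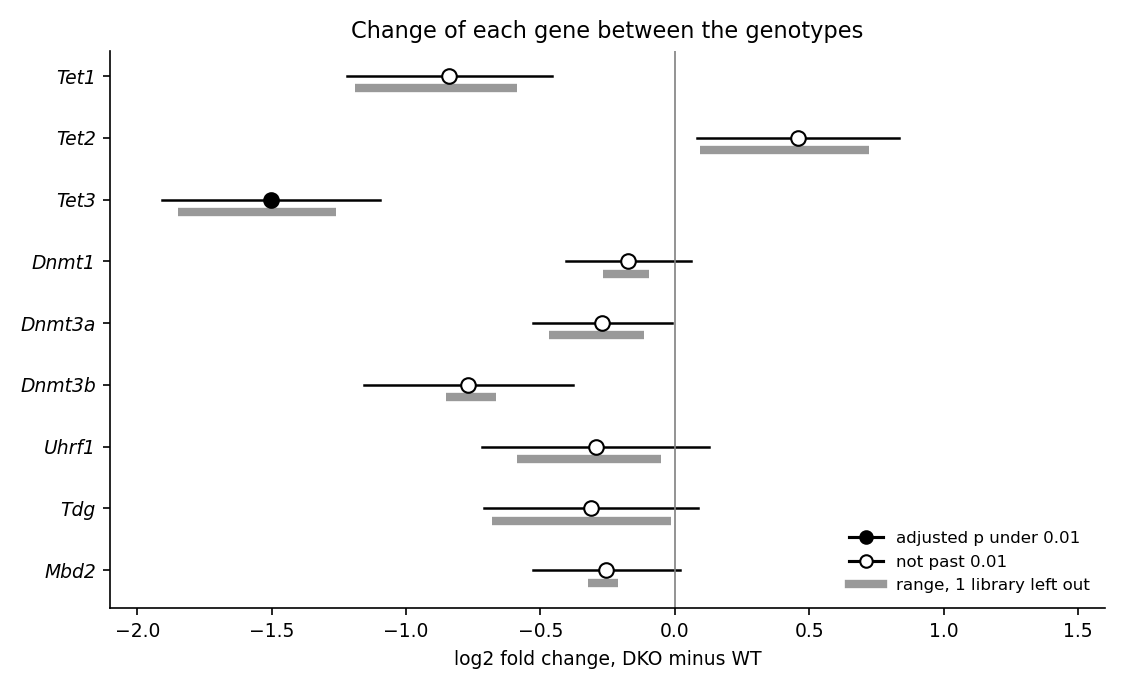
The log2 fold change (DKO minus WT) of each of the 9 genes from edgeR, with 95% intervals before adjustment as thin lines and the range over the 5 fits that leave out 1 library as grey bars. The filled point of *Tet3*, at −1.50, is the only one past an adjusted p of 0.01, and *Tet2*, at 0.46, is the only one above 0.

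Per kilobase of merged exon, the order of the WT means was *Uhrf1* (9.95 CPM per kilobase), *Dnmt3a* (9.55), *Mbd2* (9.10), *Dnmt1* (8.69), *Tdg* (6.23), *Dnmt3b* (3.54), *Tet2* (3.25), *Tet3* (2.83) and *Tet1* (2.59). Each of the first 4 overlapped its neighbour in that order over the WT libraries, as did each of the last 4. *Tdg* overlapped neither side. In DKO the 2 lowest were *Tet1* at 1.44 ± 0.43 and *Tet3* at 0.99 ± 0.29 CPM per kilobase (SD, n = 2), and *Tet2* was at 4.45 ± 1.38. Lengths of the longest protein-coding transcript put *Dnmt3a* first, at 16.4 CPM per kilobase in WT, and *Dnmt3b* below *Tet2* and *Tet3*, so the order within the upper and lower groups depended on the length used. In WT the level of *Uhrf1* per kilobase exceeded that of 66.2% of tested genes, and the level of *Tet1* that of 42.1%.

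Genes that followed *Tet2* and *Tet3* across the 5 libraries were ranked by the root mean square difference of centred log2 CPM among 8323 genes with a mean log2 CPM of at least 3. For *Tet2* the nearest were *Zfp236*, *Acyp1* and *Rfx7*, at 0.02, 0.04 and 0.05. *Zfp236* was at 19.4, 19.6 and 20.95 CPM in WT, 32.8 in DKO 1 and 21.5 in DKO 2, high in DKO 1 like *Tet2*. For *Tet3* the nearest were 2810001G20Rik, *Neurl3* and *Trpm1*, at 0.12, 0.14 and 0.15. *Neurl3* was at 39.8, 44.0 and 40.8 CPM in WT and 15.4 and 9.90 in DKO. This likeness describes 5 libraries in which genotype itself is shared by all genes.

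The other genes of the pathway came from 10 lists of partners, readers, repair enzymes, cofactor suppliers and cell cycle and germline genes, 121 genes in all. Of these, 100 were tested and 5 passed the adjusted p threshold of 0.01 in edgeR, 3 higher and 2 lower in DKO, close to the 3.92% of all tested genes that were called. The median log2 fold change of the 100 was −0.03.

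Among genes for base excision repair of modified cytosine, 1 of 15 tested passed. *Neil1*, a glycosylase of oxidized bases that can act with TDG, was at 7.70, 7.88 and 8.78 CPM in WT and at 30.2 and 26.2 CPM in DKO. Both DKO libraries were far above WT. *Neil1* rose by a log2 fold change of 1.80 ± 0.15 (SE; edgeR, adjusted p = 0.000160), and it passed in each fit that left out 1 WT library. *Hmces*, a shield for abasic sites, was at 54.3 to 61.4 CPM in WT and at 75.2 and 81.0 in DKO (log2 fold change 0.40 ± 0.10 SE; edgeR, adjusted p = 0.0437). *Gadd45g*, at 0.56 ± 0.18, and *Neil3*, at −0.44 ± 0.19, had the next largest estimates and did not pass.

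Of the TET partners and suppliers of 2-oxoglutarate, the co-substrate of the TET proteins, 2 of 15 tested passed. *Cxxc5*, a CXXC protein known to bind TET2, was at 3.48, 3.50 and 4.52 CPM in WT and at 9.44 and 18.2 CPM in DKO (log2 fold change 1.83 ± 0.30 SE; edgeR, adjusted p = 0.00610). Both DKO libraries were above WT, and DKO 2 was far above DKO 1. *Idh2*, the mitochondrial enzyme that makes 2-oxoglutarate from isocitrate, was at 317, 300 and 288 CPM in WT and at 202 and 171 CPM in DKO (−0.69 ± 0.10 SE; edgeR, adjusted p = 0.00292). *Nfil3*, a transcription factor, was at 1.55 to 2.26 CPM in WT, 1.81 in DKO 1 and 9.18 in DKO 2 (1.52 ± 0.58 SE; edgeR, adjusted p = 0.155). *Zfp281*, a zinc finger protein known as a TET1 partner, was at 95.5 to 103 CPM in WT and at 71.3 and 76.3 in DKO (−0.43 ± 0.09 SE; edgeR, adjusted p = 0.0228). Among the 11 tested CXXC domain proteins, a list that holds *Tet1*, *Tet3* and *Dnmt1* too, *Tet3* and *Cxxc5* passed, in opposite directions.

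Of 10 other readers of methylated DNA, 1 passed. *Zbtb38*, a zinc finger protein that binds methylated CpG, was at 70.5, 76.8 and 70.7 CPM in WT and at 34.3 and 43.6 CPM in DKO (log2 fold change −0.90 ± 0.13 SE; edgeR, adjusted p = 0.00254), so both DKO libraries were below WT. *Mbd5*, at 0.43 ± 0.29, and *Zbtb4*, at 0.38 ± 0.21, had the next largest estimates and did not pass.

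None of 17 tested partners and cofactors of the methyltransferases passed in edgeR or in DESeq2. In edgeR 2 of them were at an unadjusted p under 0.05, compared with 3112 of all 13525 tested genes. The largest log2 fold changes, with their SE, were those of *Setdb1* (−0.58 ± 0.17), *Cdca7* (0.42 ± 0.12) and *Trdmt1* (−0.33 ± 0.16). Of the 12 genes of the NuRD complex, brought in by MBD2, 0 passed in edgeR or DESeq2. At an unadjusted p under 0.05 in edgeR there were 2, against the same 3112 of 13525. The largest estimates were *Mta2* at −0.26 ± 0.10, *Rbbp4* at −0.21 ± 0.08 and *Chd3* at 0.20 ± 0.12. In the S-adenosylmethionine cycle, which supplies the methyl groups, 1 of 11 passed. *Shmt2*, the mitochondrial serine hydroxymethyltransferase, was at 149, 153 and 129 CPM in WT and at 227 CPM in each DKO library (log2 fold change 0.66 ± 0.10 SE; edgeR, adjusted p = 0.00302). *Ahcyl2*, at 0.41 ± 0.19, did not pass. The 4 called genes other than *Neil1* missed the threshold when any 1 WT library was left out.

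Cytosine deaminases and germline genes known to be silenced by promoter methylation were mostly not detectable at this depth. Of 4 deaminases, *Apobec1* (17.2 to 26.0 CPM in WT, 28.9 and 28.4 in DKO) and *Apobec2* (2.06 CPM or more in WT, 0.620 and 1.17 in DKO) were tested. Neither passed in edgeR or DESeq2. Both were at an unadjusted p under 0.05 in edgeR, as were 3112 of all 13525 tested genes. Of 16 germline genes, 11 had no read in any library, and 15 were too low to test, with at most 13 reads in a library. *Piwil2*, which makes germline small RNAs, was tested, at 1.47 to 2.44 CPM in WT and at most 1.17 in DKO (log2 fold change −0.97 ± 0.40 SE; edgeR, adjusted p = 0.184).

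**Figure D5:**
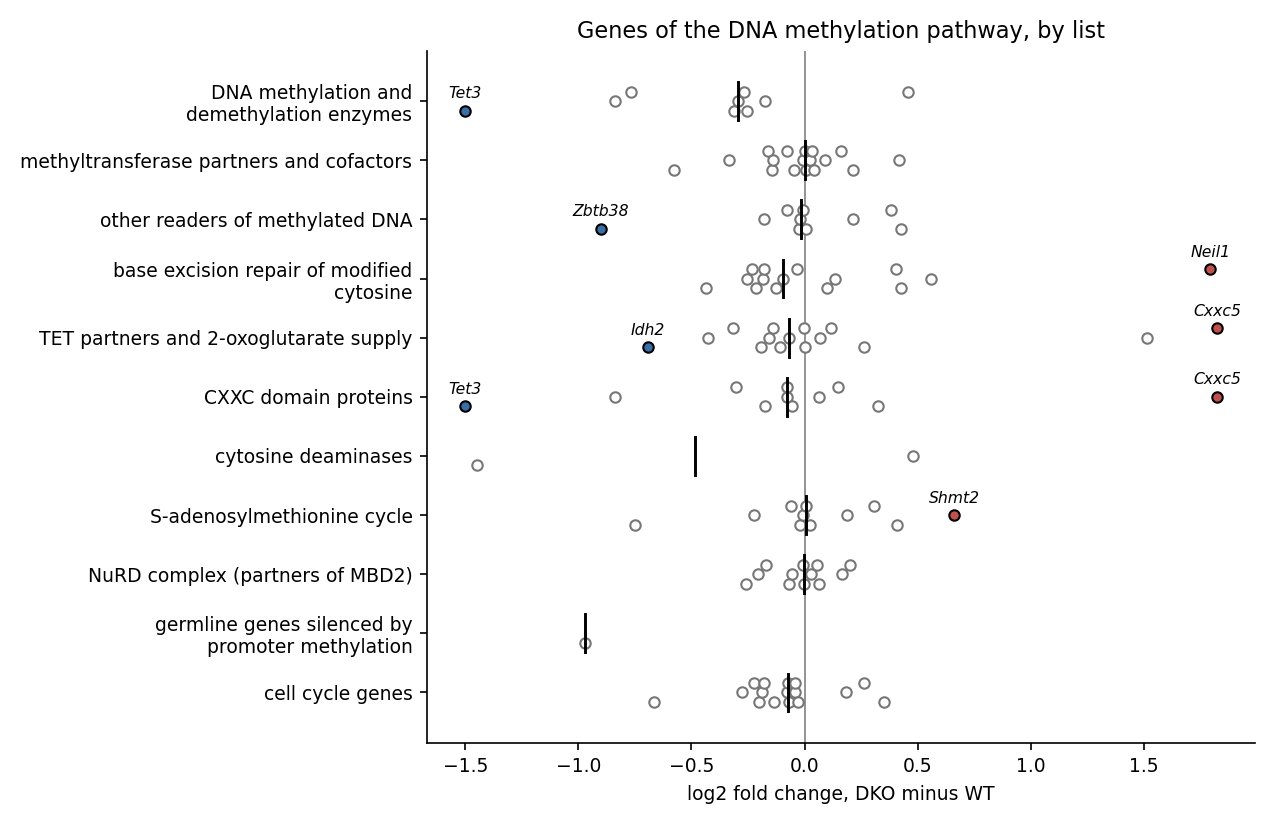
The log2 fold change (DKO minus WT) of each tested gene, 1 row per list, with the list median as a black bar. Filled points, with names, passed an adjusted p of 0.01 in edgeR (red higher, blue lower in DKO). *Neil1* and *Cxxc5*, at 1.80 and 1.83, lie farthest to the right and *Tet3*, at −1.50, farthest to the left.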

How the data were processed

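Sorted CD4 SP thymocytes of 3 WT and 2 DKO mice were profiled by SMART-seq, and groups were taken from the labels. The authors trimmed reads with fastp 0.21.0 and counted them per gene with STAR 2.7.5a on mm10 (GRCm38), and deposited raw counts, so reads that map to several places or genes are left out. Of these reads 49.8% to 50.2% fell on each strand, and the count without strand was used. The 5 libraries were compared in edgeR 4.0.16 (R 4.3.3) after filterByExpr and TMM scaling, with glmQLFit and glmQLFTest, Benjamini-Hochberg adjustment over 13525 genes and a threshold of 0.01. The test was checked on simulated data. SEs were derived from the fold change and the F statistic, as the size of the first over the root of the second. DESeq2 1.42.0, RLE size factors, no filter, other dispersion moderation, a replicate block, a threshold of 0.05, each library left out, and the 3 libraries with a matching sex label were tried as alternatives. CPM per kilobase with the longest transcript was added after seeing the data. The study's methods name DESeq2, and no covariate beside genotype was used here. Of 55487 gene identifiers, 55227 matched the GENCODE M21 annotation (GRCm38) that gave symbols, positions and exon lengths, and 260 did not. Of 122 other pathway symbols 121 matched. Per list, the genes past the threshold and up to 3 with the largest fold changes were named, *Hmces* and *Zfp281* were named after their values were seen, 1 gene the rule picks is not reported here, and the 9 genes and the lists were chosen with earlier results of these data known. No source ties the libraries to separate experiments, so p-values measure the spread between mice of a group. T cell receptor clonotype tables (10 files) were not used.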

Additional observations from a re-analysis of the deposited data

How the results depend on the processing

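Over the 12 alternative fits the direction held for all 9 genes. Of 108 fold changes, 97 kept their side of the adjusted p threshold, 9 came to pass it and 2, both of *Tet3*, no longer did. DESeq2 called 3 of the 9 genes and 1027 genes in all, a threshold of 0.05 called 3 and 1173, and the libraries with a matching sex label called 2, 1345 and 8 other pathway genes. With 1 library left out, between 0 (without WT 2 or WT 3) and 5 (without DKO 2) of the 9 genes were called, between 1 (without any 1 WT library) and 13 (without DKO 2) of the other pathway genes, and between 110 (without WT 2) and 1311 (without DKO 1) of all genes. Where 1 DKO library is left, as also among the libraries with a matching sex label, it is assumed to vary like the WT libraries. The calls of those fits therefore carry no spread between DKO mice. The replicate block called 1 of the 9 genes, 3 other pathway genes and 358 genes in all, against 530 without it, with *Cxxc5* and *Shmt2* no longer past 0.01. Deviations of equally numbered libraries correlated at 0.02 and 0.004. The deviations of the 2 DKO libraries mirror each other, so these values cannot show whether the mice were paired. The cause of these changes was not tested. Depth limits the lowly expressed lists more than the 9 genes, which had at least 199 reads in every library.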

Other observations

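Markers of other cell types were also counted. *Cd8b1*, a CD8 subunit, was at 65.9 to 71.7 CPM in WT and at 28.6 and 27.1 in DKO (log2 fold change −1.29 ± 0.11 SE; edgeR, adjusted p = 0.000168), while *Cd8a* was at 2.71 to 5.39 CPM in WT and at 5.77 and 8.67 in DKO and did not pass. *Cd5* and *Cd4* were called lower among the 9 T cell markers. *Cd5*, a T cell receptor modulator, was at 886 to 941 CPM in WT and at 404 and 344 in DKO (−1.28 ± 0.10 SE; edgeR, adjusted p = 8.57e-05), and *Cd4* was at 572 to 752 CPM in WT and 389 and 433 in DKO (−0.67 ± 0.12 SE; edgeR, adjusted p = 0.00950). The double positive stage list summed to 19.0 to 24.5 CPM in WT and 14.3 to 14.8 in DKO, and *Rag1*, *Rag2* and *Ptcra* had at most 3 reads in a library. The myeloid and dendritic list summed to 7.25 to 13.5 CPM in WT and 21.9 to 48.5 in DKO, with 0 of 4 tested genes called by edgeR or DESeq2 at 0.01. In edgeR 2 were called at 0.05, against 8.67% of all tested genes. An unadjusted p under 0.05 in edgeR was found for 3, against 3112 of all 13525 tested genes. *Lyz2*, a myeloid lysozyme gene, was at 10.8, 10.4 and 5.83 CPM in WT and at 18.6 and 42.5 in DKO (log2 fold change 1.76 ± 0.35 SE; edgeR, adjusted p = 0.0142), and *Csf1r* had an adjusted p of 0.0294 in edgeR. The B cell list summed to 5.61 to 6.96 CPM in WT and 8.62 to 9.11 in DKO, the thymic epithelium list to 9.09 to 12.3 CPM in WT and 10.6 to 34.0 in DKO, and the erythroid list to at most 0.34 CPM in any library. Their part in the levels of the DNA methylation genes was not tested.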
